A study of Mus musculus with 15 samples.

Results

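Small RNA of the mouse embryo at 11 days was compared with small RNA of the embryo at 15 days, which spans much of organ formation. The comparison rests on 2 of the 15 libraries of the series, 1 per stage, chosen by their labels. Both libraries hold read counts per mature miRNA name, and names that a library did not list were taken as 0. The 11-day library had 1505072 reads and the 15-day library 2135464 reads. The series as a whole listed 1558 mature names, of which 1232 had a read in at least 1 of the 2 embryo libraries and 486 had at least 100 reads over both. These 486 names, with 99.6% of the 11-day and 99.7% of the 15-day reads, were compared as shares of all miRNA reads of a library, given in CPM, the reads of a name scaled to a library total of 1000000. Arm usage was compared for 300 hairpins with at least 20 reads in both libraries.

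The RNA was bought as part of a commercial panel of mouse total RNA. Neither strain, sex, genotype, treatment nor the number of embryos behind a library is given in the sources used here. With 1 library per stage there was no replicate and no test. Every interval below is an exact 95% interval that covers counting error of reads only. It may be too narrow even for that, since amplified reads are not independent molecules. A difference between the stages cannot be told apart from one between the batches of embryos. A name was called higher or lower when its share differed at least 2-fold. The 17-day embryo library of the series, with 2625149 reads, is given beside the results as a set of values. Its title says 17 days and its source field says 15 days, and the title was used.

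A mature miRNA guides Argonaute proteins to messenger RNAs, mostly through its seed, bases 2 to 8 from the 5′ end. miRNAs that share a seed tend to share many targets. Several families mark stages or cell types in the embryo. The miR-290 to miR-295 cluster and the miR-302 cluster are known from pluripotent cells, and the former also from trophoblast. The miR-17-92 cluster and its paralogs are known for promoting proliferation. The let-7 family accumulates as cells differentiate, and its precursors are held back by the RNA-binding protein LIN28 in early embryos. Muscle, liver, red cells and skin each carry miRNAs of their own.

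The sequences on which the comparison turns are shown here 5′ to 3′ as listed by RefSeq for GRCm38.p6, with the seed in capitals. In the early embryonic group and the miR-17 family the seeds AAGUGCU and AAAGUGC share a run of 6 bases at an offset of 1.
miR-294-3p: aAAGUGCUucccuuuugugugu
miR-295-3p: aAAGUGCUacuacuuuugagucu
miR-291a-3p: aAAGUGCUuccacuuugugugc
miR-302d-3p: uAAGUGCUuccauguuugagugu
miR-17-5p: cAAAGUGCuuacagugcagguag
miR-20a-5p: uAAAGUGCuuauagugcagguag
miR-20b-5p: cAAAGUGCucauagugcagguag
miR-106a-5p: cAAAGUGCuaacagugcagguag
From the same cluster, but with another seed, come 2 strands of the 5p arm, shown because miR-292a-5p had the lowest ratio of all names.
miR-290a-5p: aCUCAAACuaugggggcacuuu
miR-292a-5p: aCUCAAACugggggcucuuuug
Among the strands shown here that were higher at 15 days, those of let-7 share 1 seed, and miR-206-3p, miR-203-3p and miR-144-3p have others. The sequence of miR-1a-3p, a second muscle strand that was higher, was not found, so its seed was not compared.
let-7i-5p: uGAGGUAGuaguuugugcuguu
let-7f-5p: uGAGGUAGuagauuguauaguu
miR-98-5p: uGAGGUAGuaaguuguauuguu
miR-206-3p: uGGAAUGUaaggaagugugugg
miR-203-3p: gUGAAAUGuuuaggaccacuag
miR-144-3p: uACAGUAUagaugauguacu
miR-376a-3p: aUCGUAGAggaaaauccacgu

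Of the 486 names, 47 were at least 2-fold higher at 15 days (9.67%) and 110 at least 2-fold lower (22.6%), together 32.3%. The counting interval of the ratio lay wholly past 2-fold for 34 of the higher and 87 of the lower names. The 47 higher names took 4.38% of reads at 11 days and 15.7% at 15 days, and the 110 lower names took 17.0% and 6.64%. On the lower side 10 names were more than 16-fold lower, and 0 were more than 16-fold higher. The median log2 ratio of all names was -0.20. Scaling by TMM raised every log2 ratio by 0.15 and gave 61 higher and 90 lower names, and DESeq2 size factors raised it by 0.20 and gave 70 and 87. Of the 110 lower names, 20 fell short of 2-fold with TMM and 23 with DESeq2 size factors, and 0 of the higher names did. A further 14 names came to be at least 2-fold higher with TMM, and 23 with DESeq2 size factors.

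By the same rule, the 15- and 17-day embryos had 22 of 491 names higher at 17 days (4.48%) and 20 lower (4.07%), or 8.55% in all. The 11- and 15-day embryos ranked 3 of all 105 pairs of libraries, from the smallest share apart upwards, after the 15- and 17-day embryos and after brain and spinal cord (22.3%), and the median pair had 70.1%.

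**Figure D1:**
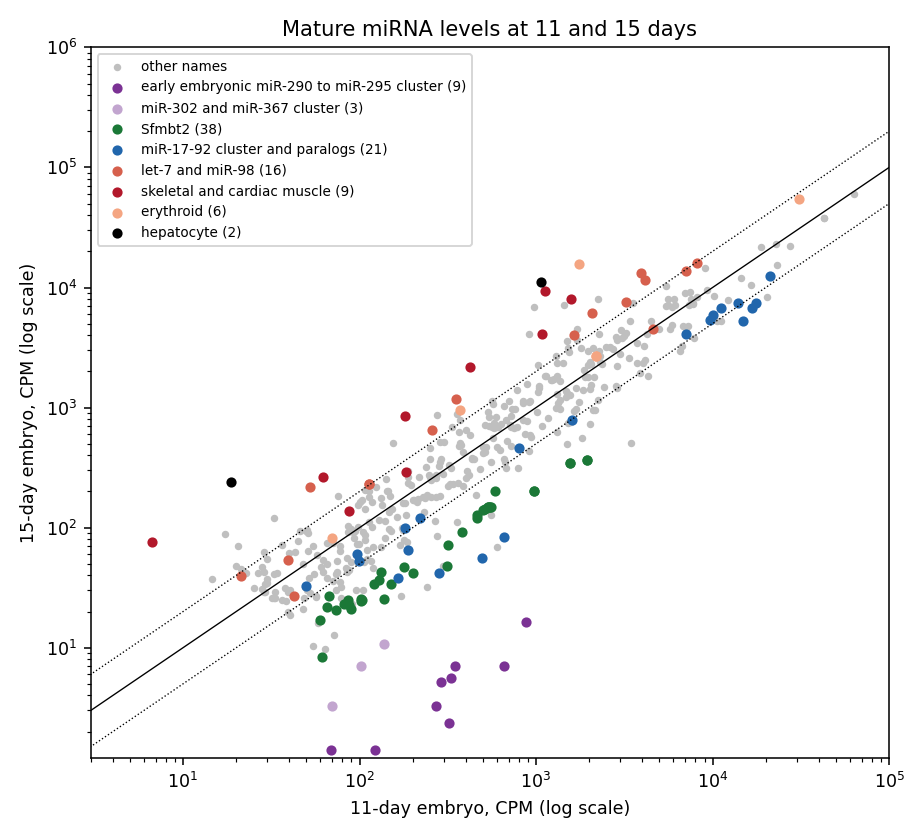
CPM of 486 mature miRNA names in the 11-day (x) and 15-day (y) embryo libraries, both on log scales, 1 point per name, coloured by list with the number of names. The solid line marks equal shares and the dotted lines 2-fold differences; the miR-290 to miR-295 names lie farthest below the lines.

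The early embryonic miRNAs were the names that differed most. All 9 compared names of the miR-290 to miR-295 cluster were lower at 15 days, with log2 ratios from -6.96 to -5.40. Together the 16 listed names of this cluster held 4987 reads at 11 days, or 0.331% of the library (interval 0.322 to 0.341), against 112 reads at 15 days, or 0.00524% (0.00432 to 0.00631). This is 63.2-fold lower, and the 17-day library had 75 reads, or 0.00286%. Each of the 9 names was counted with at least 104 reads at 11 days and with 3 to 35 reads at 15 days, so that the 15-day counts set the width of the intervals. In RNA from embryos, fewer cells of a type and less RNA per cell cannot be told apart. The sample titles do not say whether the embryos were whole or held extraembryonic tissue.

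miR-295-3p, the most abundant strand of the cluster, stood at 874.4 CPM at 11 days (827.8 to 922.9) and 16.4 CPM at 15 days (11.4 to 22.8), a 53.3-fold difference (interval 38.2 to 76.9). Its 17-day level was 9.14 CPM. miR-294-3p went from 657.8 CPM to 7.02 CPM, 93.6-fold lower (56.5 to 168.0), and miR-291a-3p from 348.8 to 7.02 CPM, 49.7-fold lower (29.8 to 89.4). These strands share the seed AAGUGCU shown above. miR-292a-5p had the lowest ratio, with 481 reads at 11 days and 5 at 15 days, 136.5-fold lower (58.1 to 422.3). The intervals of the 9 ratios overlap widely, and no order among these members can be read from them.

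The hairpins of the cluster lie on the plus strand of chromosome 7 in GRCm38, from the start of Mir290a at 3218626 to the end of Mir295 at 3220841. GENCODE places Mir291a to Mir295 over an exon of Nlrp12 on the opposite strand, and no other gene over Mir290a. Among the 12 adult libraries, testis had the highest summed share of the cluster, 0.0223% from a library of 148052 reads, and the median adult library had 0.000102%. The 3 compared names of the miR-302 and miR-367 cluster, miR-302a-3p, miR-302b-3p and miR-302d-3p, were 21.3-fold, 14.6-fold and 12.7-fold lower. miR-302d-3p went from 136.9 to 10.8 CPM and shares its seed with miR-294-3p.

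A second group that was lower as a whole belongs to families hosted mainly in Sfmbt2, an imprinted gene known for its activity in the placenta and other extraembryonic tissue. All 38 compared names of the miR-297, miR-466, miR-467 and miR-669 families were lower at 15 days, with log2 ratios from -2.83 to -1.30 and a median of -1.93. Their summed share went from 1.77% at 11 days to 0.415% at 15 days, 4.26-fold lower, and stood at 0.294% in the 17-day library. miR-467a-5p, the most abundant at 11 days, went from 1940 to 362.9 CPM, 5.35-fold lower (4.94 to 5.79). Its counts were equal to those of miR-467b-5p in all 15 libraries, as were those of miR-669a-5p and miR-669p-5p and of miR-669a-3p and miR-669o-3p, so the 38 names are not separate measurements. On chromosome 2 in GRCm38, Mir669f (10467229 to 10467349), Mir467c (10473931 to 10474027) and Mir466n (10513741 to 10513834) all lie in an intron of Sfmbt2 on its strand. GENCODE places 71 of 81 annotated genes of these families within Sfmbt2 on its strand, so a name of the list may also hold reads from elsewhere. Without this list 72 of 448 names were lower.

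The miR-17-92 cluster and its paralogs, by contrast, held a large summed share of reads at both stages, though single members ran from scarce to abundant. Of 21 compared names 9 were lower (42.9%) and 0 higher, against 22.6% and 9.67% of all names. The log2 ratio of every one of the 21 lay between -3.13 and -0.60. One of the 9, miR-17-3p (-1.01), was short of 2-fold with TMM (-0.86) and DESeq2 size factors (-0.81). The summed share of the list went from 12.7% of all reads at 11 days to 6.35% at 15 days and 5.04% in the 17-day library, the largest loss among the lists. The size of the difference varied with the locus. In the paralog cluster on chromosome X, miR-106a-5p went from 493.0 to 56.2 CPM, 8.77-fold lower (7.23 to 10.7), and miR-20b-5p from 660.4 to 84.3 CPM, 7.84-fold lower (6.68 to 9.24). From the same cluster miR-363-3p was 6.72-fold lower and miR-18b-5p 4.33-fold lower.

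In the main cluster, in exons of Mir17hg on chromosome 14, the ratios were smaller. miR-17-5p went from 16828 to 6743 CPM, 2.50-fold lower, and miR-20a-5p from 17692 to 7479 CPM, 2.37-fold lower. miR-92a-3p, which is made from a hairpin in this cluster and from 1 on chromosome X, went from 14902 to 5278 CPM, 2.82-fold lower. miR-18a-5p, miR-19a-3p and miR-19b-3p had log2 ratios of -0.85, -0.79 and -0.76. From the third cluster, on chromosome 5, miR-93-5p, miR-106b-5p and miR-25-3p had log2 ratios of -0.91, -0.76 and -0.71. The intervals of miR-106a-5p and miR-20b-5p lay clear of those of miR-17-5p and miR-20a-5p, although the strands are alike in sequence, as shown above, and the counting could have moved reads between them.

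By seed, the 6 names with AAAGUGC held 5.97% of reads at 11 days, 2.77% at 15 days and 1.93% in the 17-day library. The names with the seed AUUGCAC, led by miR-92a-3p and miR-25-3p, held 3.04%, 1.37% and 1.28%. One of them, miR-92b-3p, has a hairpin of its own on chromosome 3 and went from 3466 to 507.6 CPM, 6.83-fold lower (6.39 to 7.30). In adult libraries it was highest in spinal cord, at 1891 CPM. The names compared by seed cover 91.7% of the 11-day and 90.7% of the 15-day reads, because not every mature strand was in the sequence table.

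miR-130b-3p, whose seed AGUGCAA it shares with miR-130a-3p and miR-301a-3p, went from 4330 CPM (4226 to 4436) to 1837 CPM (1780 to 1895), 2.36-fold lower (2.27 to 2.45), and stood at 1265 CPM in the 17-day library. Of the 8 compared names of the miR-130 and miR-301 list, 4 were lower (50%, against 22.6% of all names), all from the miR-130b and miR-301b hairpins. Of these, miR-301b-3p (log2 ratio -1.04) was short of 2-fold with TMM (-0.90) and DESeq2 size factors (-0.85). miR-130a-3p, the most abundant, and miR-301a-3p had log2 ratios of -0.67 and -0.51.

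Among miRNAs hosted in Hox clusters, which pattern the body axis, 5 of 8 names were lower (62.5%) and 0 higher, against 22.6% and 9.67% of all names. miR-615-3p, from an intron of Hoxc5, went from 1826 to 556.3 CPM, 3.28-fold lower. miR-10a-5p went from 6495 to 2949 CPM and miR-10b-5p from 7874 to 3775 CPM. Both were past 2-fold as shares, but their log2 ratios of -1.14 and -1.06 became -0.99 and -0.91 with TMM scaling and -0.94 and -0.87 with DESeq2 size factors. The remaining lower names, miR-10a-3p (-1.17) and miR-10b-3p (-1.36), come from the same hairpins, so they are not separate loci. With DESeq2 size factors miR-10a-3p was also short of 2-fold, at -0.98. miR-196b-5p and miR-196a-5p had log2 ratios of -0.97 and -0.65.

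**Figure D2:**
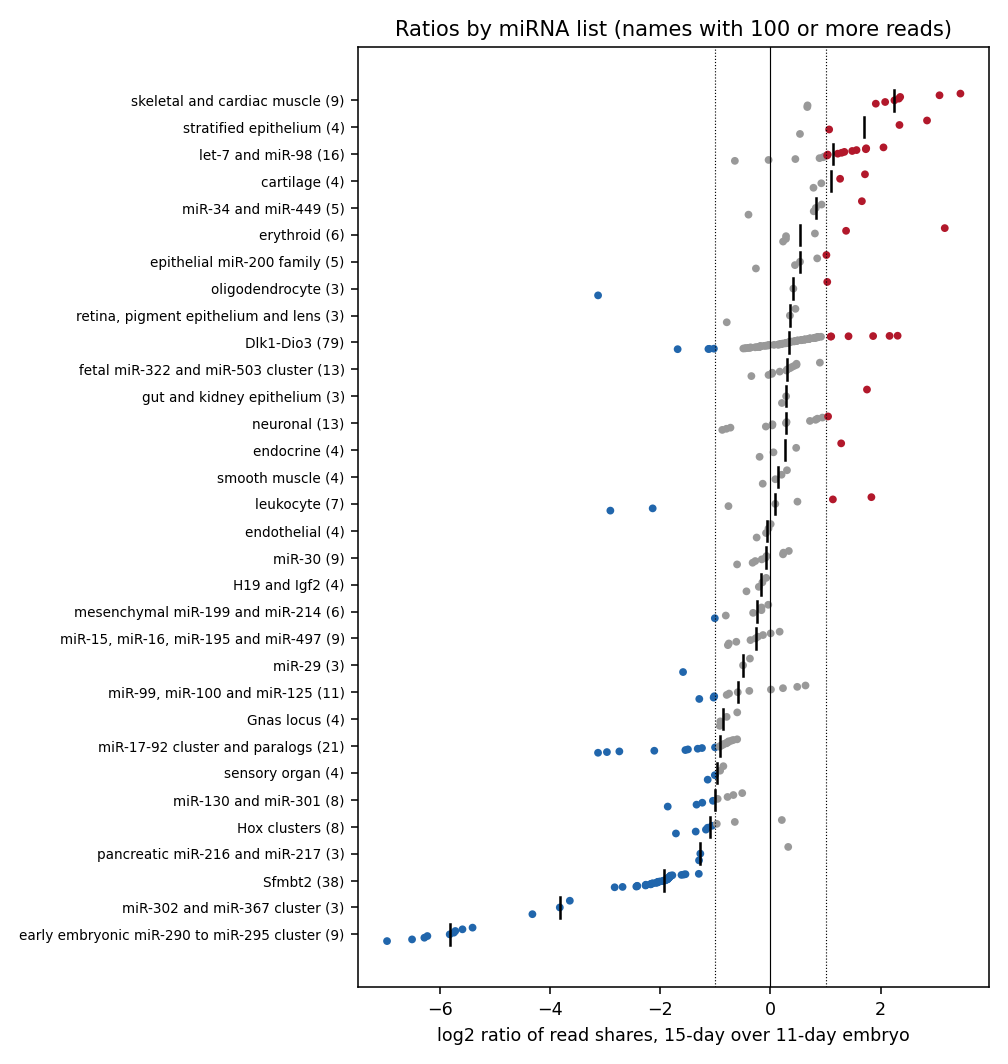
Log2 ratio of read shares (15-day over 11-day embryo, x) for each compared name of the lists with at least 3 such names, 1 row per list with the number of names. Red points are at least 2-fold higher, blue points at least 2-fold lower, grey points between, and the black bar is the list's median; the Sfmbt2, miR-302 and miR-290 to miR-295 rows lie wholly left of the dotted 2-fold line.

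The largest gain of a list in points of share was that of let-7 and miR-98, from 3.59% of reads at 11 days to 7.94% at 15 days. In this list 10 of 16 names were higher (62.5%, against 9.67% of all names) and 0 lower. let-7i-5p went from 3953 to 13184 CPM, 3.33-fold higher, let-7f-5p from 4127 to 11544 CPM, 2.80-fold higher, and miR-98-5p from 354.1 to 1176 CPM, 3.32-fold higher. The most abundant member, let-7a-5p, went from 8112 to 16050 CPM, as a share just short of 2-fold at 1.98 (1.94 to 2.02). Its log2 ratio of 0.98 became 1.13 with TMM and 1.18 with DESeq2 size factors, past 2-fold.

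let-7 members did not move as one. let-7e-5p had 4593 CPM at 11 days and 4488 CPM at 15 days, a log2 ratio of -0.03. In the 17-day library the list stood at 4.47%, between the other stages, with let-7a-5p at 7238, let-7f-5p at 5052 and miR-98-5p at 442.6 CPM, near their 11-day levels, while let-7i-5p (9157 CPM) and let-7d-5p (4759 CPM against 2063 at 11 days and 6091 at 15 days) lay nearer to the 15-day ones. Members of this family differ by few bases, so reads may have been shared between names in the counting. miR-99b-5p, which is transcribed together with let-7e and miR-125a, went from 6692 to 3275 CPM, 2.04-fold lower, but its log2 ratio of -1.03 became -0.88 with TMM and -0.84 with DESeq2 size factors. miR-125a-5p, from the same transcript, had a log2 ratio of -0.59. In the list of miR-99, miR-100 and miR-125 names 3 of 11 (27.3%) were lower, near the 22.6% of all names, and 0 higher.

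Striated muscle gave the list with the highest median ratio among lists of at least 3 names. Of 9 compared names 7 were higher (77.8%, against 9.67% of all names) and 0 lower, with a median log2 ratio of 2.25. The summed share went from 0.477% (0.466 to 0.488) at 11 days to 2.53% (2.51 to 2.55) at 15 days and 2.94% in the 17-day library. miR-206-3p, known from skeletal muscle, went from 1119 CPM (1066 to 1174) to 9384 CPM (9255 to 9515), 8.39-fold higher, and stood at 5252 CPM in the 17-day library. miR-1a-3p, found in skeletal muscle and heart, went from 1581 to 7955 CPM, 5.03-fold higher, and miR-133b-3p, made from the same non-coding RNA as miR-206, from 424.6 to 2172 CPM, 5.12-fold higher. miR-499-5p, from an intron of the myosin gene Myh7b, was 4.76-fold higher. The exceptions were the cardiac strands miR-208a-3p (87.0 and 138.6 CPM) and miR-208b-3p (183.4 and 292.7 CPM), with 1.59-fold and 1.60-fold ratios.

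The hepatocyte miRNA miR-122-5p had the second highest ratio of all names above 100 CPM on average, after its partner strand. It went from 1062 CPM (1010 to 1115) to 11058 CPM (10919 to 11200), 10.4-fold higher (9.90 to 11.0), and miR-122-3p from 18.6 to 240.7 CPM, 12.9-fold higher. The intervals of the ratios of both arms overlapped. Adult liver had 311546 CPM of miR-122-5p.

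Of 6 compared red cell names, 2 were higher (33.3%, against 9.67% of all names) and 0 lower. Both higher names, miR-144-5p and miR-144-3p, are strands of the mir-144 hairpin, so they are not separate loci. The summed share of the list went from 3.76% to 7.63% and stood at 10.1% in the 17-day library. miR-144-3p went from 1749 CPM (1683 to 1817) to 15666 CPM (15500 to 15834), 8.96-fold higher (8.61 to 9.32). miR-451a, whose hairpin on chromosome 11 (78073170 to 78073241) lies just after that of miR-144 (78073005 to 78073070) on the same strand, went from 30988 to 54217 CPM, a ratio of 1.75 (1.73 to 1.77). Their intervals lay far apart, although the hairpins are neighbours. With the red cell reads left out of the totals, 49 names were higher and 100 lower.

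Among names of stratified epithelium, miR-203-3p, known from differentiating keratinocytes, went from 968.7 to 6944 CPM, 7.17-fold higher, and stood at 13954 CPM in the 17-day library. miR-205-5p, known from basal keratinocytes, went from 5584 to 8096 CPM, a ratio of 1.45. The cartilage miRNA miR-140 was measured from both arms, with miR-140-5p going from 1500 to 3602 CPM, 2.40-fold higher, and miR-140-3p from 5456 to 10345 CPM, a ratio of 1.90. The log2 ratio of miR-140-3p, 0.92, became 1.07 with TMM and 1.12 with DESeq2 size factors, past 2-fold. Of the epithelial miR-200 family 1 of 5 names was higher (20%, against 9.67% of all names), miR-141-3p, at 562.1 and 1137 CPM.

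**Figure D3:**
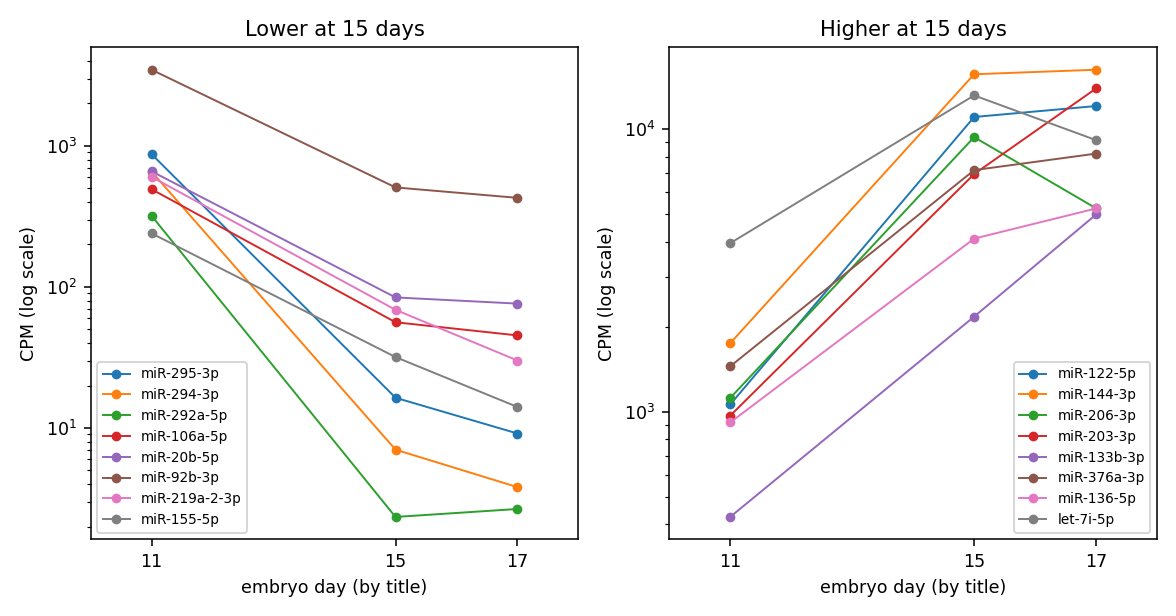
CPM (y, log scale) of 8 names lower (left) and 8 names higher (right) at 15 days in the 11-, 15- and 17-day embryo libraries (x), 1 library per day and 1 line per name; lines only join the points of a name. miR-206-3p and let-7i-5p were lower in the 17-day than in the 15-day library, and miR-203-3p was higher.

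In the white blood cell list, miR-142a-3p, found across blood lineages, went from 2245 to 7993 CPM, 3.56-fold higher, and miR-142a-5p from 1026 to 2251 CPM, 2.19-fold higher. miR-155-5p, known from activated lymphocytes and macrophages, went from 239.9 to 31.8 CPM, 7.53-fold lower (5.80 to 9.91), and miR-146b-5p from 558.8 to 126.9 CPM, a log2 ratio of -2.14. miR-223-3p, of granulocytes and macrophages, had 595.3 and 836 CPM. The list had 2 names higher and 2 lower of 7 (28.6% each), against 9.67% and 22.6% of all names.

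Neuronal names took a large and nearly equal share in both libraries, 9.22% at 11 days and 8.89% at 15 days, and 5.02% in the 17-day library. Of 13 compared names 1 was higher (7.69%, near the 9.67% of all names), miR-128-3p, a miRNA of mature neurons, at 1304 and 2693 CPM. In this list 0 names were lower, against 22.6% of all names. miR-9-5p, of neural progenitors and neurons, was the most abundant miRNA of both libraries with 63222 and 59669 CPM, and miR-124-3p, of neurons, had 9283 and 9497 CPM. In the oligodendrocyte list the strands of miR-219a differed. miR-219a-2-3p, made only from the hairpin on chromosome 2 (29845631 to 29845727), went from 603.3 to 68.8 CPM, 8.76-fold lower, while miR-219a-5p, which both miR-219a hairpins can yield, had 732.9 and 977.8 CPM. miR-338-3p went from 335.5 to 686.0 CPM, 2.04-fold higher.

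The labelled tissue was checked with miRNAs of H19 and Igf2, imprinted genes that are active before birth: they held 0.246% of reads at 11 days and 0.216% at 15 days, and at most 0.00300% in an adult library. Several lists had no name past 2-fold, against 32.3% of all names, which says little for lists of 3 or 4 names. These were the smooth muscle (4 names), endothelial (4), H19 and Igf2 (4), Gnas locus (4), miR-30 (9), eye (3) and miR-15 and miR-16 (9) lists and the fetal cluster of miR-322 and miR-503 (13). The 4 Gnas locus names still had log2 ratios from -0.92 to -0.60, and their summed share went from 0.802% to 0.457%, 1.75-fold lower. The mesenchymal list, the largest at 11 days with 13.2% of reads, had 11.1% at 15 days. In it 1 of 6 names was lower (16.7%, against 22.6% of all names), miR-214-3p, at 10583 and 5258 CPM. Its log2 ratio of -1.01 became -0.86 with TMM and -0.81 with DESeq2 size factors. miR-199a-3p and miR-199b-3p, of nearly equal counts, stood at 42528 and 42606 CPM at 11 days and at 37981 and 38084 CPM at 15 days.

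The imprinted Dlk1-Dio3 region of chromosome 12 yields more miRNAs than any other list here. Its summed share went from 8.63% to 12.4% and stood at 14.5% in the 17-day library, yet 6 of 79 compared names were higher and 4 lower, against 9.67% and 22.6% of all names. The higher names were miR-376a-3p, miR-136-5p, miR-539-3p, miR-381-3p, miR-136-3p and miR-299a-3p. miR-376a-3p went from 1448 to 7171 CPM, 4.95-fold higher (4.73 to 5.18), and miR-136-5p, made opposite the Rtl1 coding exon, from 916.9 to 4103 CPM, 4.47-fold higher. The lower ones were miR-758-3p (355.5 and 110.5 CPM), miR-1197-3p, miR-673-5p and miR-323-3p, and the last 3 were short of 2-fold with TMM and with DESeq2 size factors. In the 17-day library miR-673-5p had 1611 CPM, against 676.4 CPM at 11 and 313.3 CPM at 15 days. Ratios within this one region thus ran from -1.68 to 2.31 on the log2 scale.

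**Figure D4:**
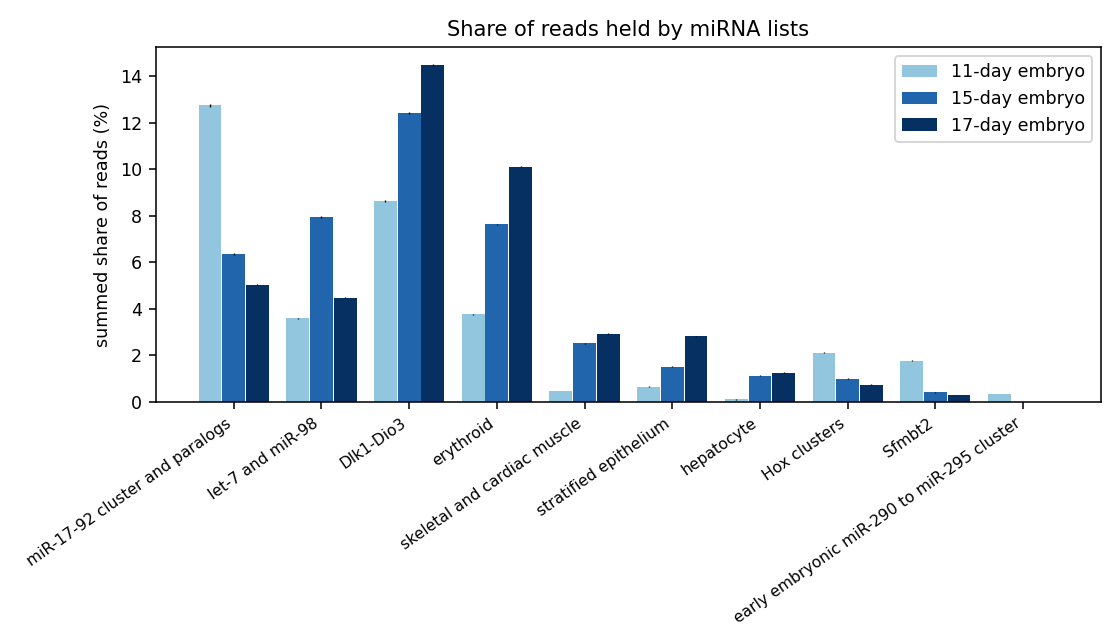
Summed share of reads (y, percent) held by 10 miRNA lists in the 11-, 15- and 17-day embryo libraries, 1 library per bar, with exact 95% counting intervals as thin error bars. The miR-17-92 list goes from 12.7% to 6.35% and the let-7 list from 3.59% to 7.94% between 11 and 15 days.

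The adult libraries were used to describe the names that differed. Of the 486 names, 17 were highest in heart among the 12 adult libraries, and 7 of these (41.2%) were higher and 0 lower at 15 days, against 9.67% and 22.6% of all names. The 7 include miR-1a-3p, miR-133a-3p, miR-133a-5p, miR-133b-3p and miR-499-5p of the muscle list, so this is not a separate observation. By contrast 107 names were highest in testis, and of these 2 were higher and 60 lower (56.1%). Without the Sfmbt2 list, 22 of 69 names highest in testis were lower, or 30.6% of the 72 lower names against 15.4% of all 448. Of these 22, 9 are miR-290 to miR-295 or miR-302 names that had 1 to 7 reads in testis. Without those lists too, 13 of 60 lower names (21.7%) were highest in testis, against 13.8% of all 436. The testis library was the shallowest of the series, which makes its levels the least exact. Of 97 names highest in brain 9.28% were higher and 13.4% lower, and of 96 highest in spinal cord 7.29% and 13.5%, so that the shares of higher names were near that of all names.

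Base composition moved with the ratios as well. A mature sequence was found for 401 of the 486 names. The median GC content was 40.9% for 38 higher names, 50% for 69 lower names and 47.4% for all 401. Of the 38 compared names of the Sfmbt2 list, all lower, 1 had a sequence. These and the following GC values thus leave out nearly all of that list. In the third of names with the lowest GC content 22 were higher and 17 lower of 134, and in the third with the highest 2 were higher and 31 lower of 132. Across the 401 names, which share both libraries, Spearman's rho between GC content and log2 ratio was -0.27. Between the 15- and 17-day libraries it was 0.42 across 413 names. After a straight-line correction for GC content 34 names were higher and 62 lower of the 401, against 38 and 69 without it. Among 95 of these names that met the rule for description given below, 39 were past 2-fold before it. The correction took 3 of those 39 below 2-fold, miR-142a-5p, miR-338-3p and miR-7b-5p. Any further part of base composition in the ratios of names was not tested.

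A hairpin yields a strand from its 5p arm and one from its 3p arm, and the 5p share is the percent of its reads that come from the 5p arm. Over the 300 hairpins the median difference between 11 and 15 days was 0.935 points, and 258 hairpins differed by less than 5 points. In 148 hairpins the 5p arm led in both libraries and in 139 the 3p arm did. The 5p share differed by at least 10 points with intervals that did not overlap in 6 hairpins (2%), 4 with more 5p and 2 with more 3p at 15 days. By the same rule 5 of 305 hairpins differed between the 15- and 17-day embryos (1.64%). A rule in points leaves little room to hairpins near 0 or 100%. On the scale of log2 odds, 59 of 300 hairpins (19.7%) differed by at least 1 between 11 and 15 days, 18 of them with intervals that did not overlap. For 230 hairpins both strands had a sequence. Across these, Spearman's rho between the GC difference of the strands and the log2 odds difference was -0.19. After a correction for GC content the 6 hairpins differed by -11.6 to 17.9 points, each still by at least 10. A further 7 hairpins differed by 10 points or more but had intervals that overlapped, from 20 to 86 reads in each library.

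The strands of the 4 hairpins that used the 5p arm more at 15 days are shown here, 5′ to 3′ with seeds in capitals, because a change of arm exchanges one seed for another.
miR-136-5p: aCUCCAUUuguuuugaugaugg
miR-136-3p: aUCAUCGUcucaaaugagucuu
miR-540-5p: cAAGGGUCacccucugacucugu
miR-540-3p: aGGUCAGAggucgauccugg
miR-455-5p: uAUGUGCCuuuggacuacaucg
miR-455-3p: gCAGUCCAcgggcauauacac
miR-34b-5p: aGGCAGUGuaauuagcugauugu
miR-34b-3p: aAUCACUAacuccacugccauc

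The dominant arm of mir-136 changed between the stages. Its 5p share was 34.9% at 11 days (33.4 to 36.4, 3950 reads), 52.8% at 15 days (52.0 to 53.6, 16593 reads) and 52.2% in the 17-day library (51.6 to 52.8). Both strands were higher at 15 days, miR-136-5p 4.47-fold and miR-136-3p, from 1708 to 3667 CPM, 2.15-fold. The hairpin lies on chromosome 12 from 109595327 to 109595388. mir-299a, from the same region (109710638 to 109710700), changed in the other direction, with 58.1% at 11 days (55.4 to 60.8), 47.5% at 15 days (45.8 to 49.3) and 64.5% in the 17-day library (63.1 to 65.9). Part of its sequence, 18 bases long, occurs in another hairpin, so this share is uncertain. These were the only 2 of 300 hairpins whose intervals lay on opposite sides of 50%.

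mir-540, the third Dlk1-Dio3 hairpin of the 6, went from 57.0% (54.4 to 59.5) to 74.1% (72.5 to 75.6) and had 67.8% in the 17-day library. Its 5p strand had 572.1 and 1081 CPM, and its 3p strand 431.9 and 377.9 CPM. mir-455, in an intron of the collagen gene Col27a1, went from 22.4% (19.9 to 25.1) to 35.6% (33.9 to 37.4), with 27.6% in the 17-day library. Here miR-455-5p was 3.29-fold higher, and miR-455-3p had a ratio of 1.72. mir-34b, known from ciliated cells, had 62.8% at 11 days from 121 reads (53.6 to 71.4) and 81.4% at 15 days from 253 reads (76.1 to 86.0).

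mir-144 showed the widest split between its arms among the 6. The 5p share was 17.4% at 11 days (16.1 to 18.8), 5.75% at 15 days (5.51 to 5.99) and 5.26% in the 17-day library. miR-144-5p went from 368.8 to 955.3 CPM, 2.59-fold higher, while miR-144-3p was 8.96-fold higher. Just short of 10 points was mir-376a, with 13.0% and 3.55%, and mir-142a, with 31.4% and 22.0%. For mir-376a the 5p strand had 217.3 and 263.6 CPM beside the 4.95-fold higher level of its 3p strand.

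mir-324 differed little. Its 5p share was 58.6% at 11 days (56.5 to 60.5), 61.2% at 15 days (59.0 to 63.3) and 63.1% in the 17-day library (61.3 to 64.9), and the intervals of the first 2 overlapped. miR-324-5p had 927.5 and 588.6 CPM, and miR-324-3p 656.4 and 373.7 CPM. In 129 hairpins both arms were among the compared names, and in 120 of them the log2 ratios of the arms lay within 1 of each other, with a median gap of 0.26.

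**Figure D5:**
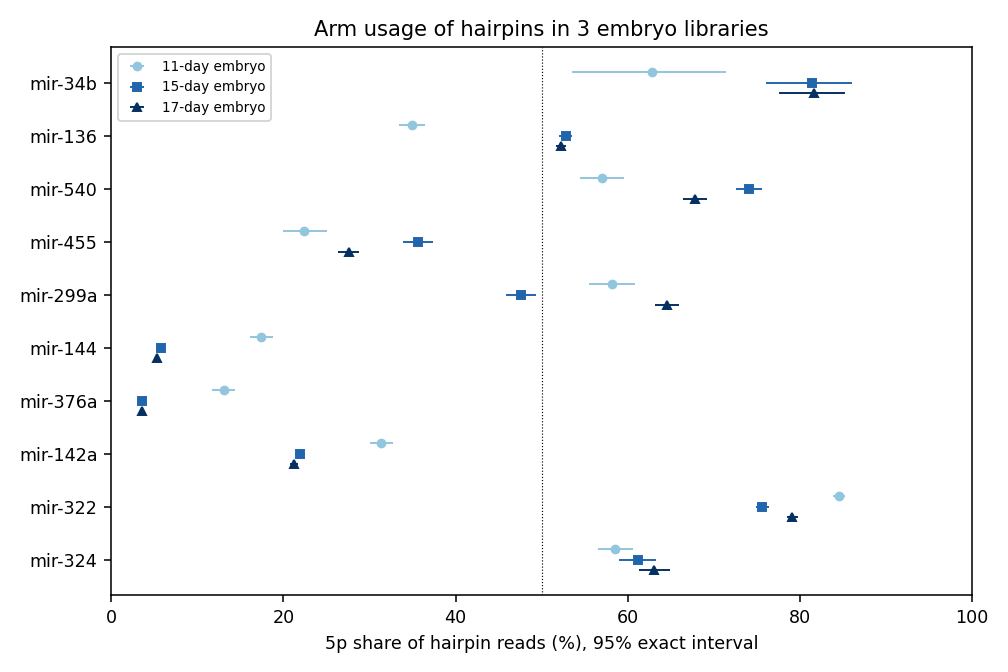
5p share of the reads of 10 hairpins (x, percent) in the 11-, 15- and 17-day embryo libraries, with exact 95% counting intervals, 1 library per day; the dotted line marks 50%. mir-136 crosses the line between 11 and 15 days, and mir-299a lies below it at 15 days only.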

How the data were processed

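The deposited files hold raw read counts per mature miRNA name. Per the submitters' processing notes, the build was mm10 and the tools were BWA, bedtools, cutadapt and bcl2fastq 1.8.4. What each tool did, which miRNA annotation was counted and how multiply mapped reads were treated is not given in the sources used here. Per the labels' protocols, small RNA was selected by size on a gel, ligated to adapters with randomized ends and sequenced with added spike-in RNAs, which the counts do not list.

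Counts were divided by the library total. Log2 ratios used 0.5 reads added to each count. Intervals of shares were Clopper-Pearson, and intervals of ratios were exact binomial intervals given the sum of both counts. A count of 3 reads stood for 1.99 CPM at 11 days and 1.40 CPM at 15 days. Scripts ran in Python 3.11.15 with scipy 1.17.1, and edgeR 4.0.16 (TMM) and DESeq2 1.42.0 (size factors) gave other scalings. Interval code was tested on simulated data. The names described were drawn from those with the 12 highest or lowest log2 ratios at a mean of at least 100 CPM, the 10 most abundant of a library, the 3 most abundant of each of 33 lists, and the markers. Not every such name was described. Among those left out were miR-181a-5p, miR-26a-5p and let-7i-3p, and the sensory organ, pancreatic, miR-29 and gut and kidney lists. Members of a list past 2-fold, strands from the same hairpin or cluster, and hairpins just short of 10 points were added after their values were seen. The members and lists were chosen with earlier results of these data known. Positions come from GENCODE for GRCm38.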

Additional observations from a re-analysis of the deposited data

How the results depend on the processing

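No paired analysis was possible because each stage has 1 library. The counts of names past 2-fold (157 in all, 47 higher and 110 lower) stayed within 1.5 times under TMM, DESeq2 size factors, a pseudocount of 5 reads, counting intervals past 2-fold and removal of names with equal counts. Filters moved them. With at least 20 reads 170 were lower, with 10 times the minimum number of reads 76 were apart and 44 lower, and with no filter 636 were apart, 208 higher and 428 lower of 1232, where most names have few reads. The last settings were chosen after seeing the data: without the Sfmbt2 list 72 were lower, among the 401 names with a sequence 69 were lower, and after the GC correction 96 were apart and 62 lower. No named ratio past 2-fold changed sign under the scalings, pseudocount or corrections run. Of the 110 lower names 20 fell short of 2-fold under TMM and 23 under DESeq2 size factors. Among the names described these were miR-10a-5p, miR-10b-5p, miR-17-3p, miR-99b-5p, miR-181b-5p, miR-214-3p, miR-301b-3p, miR-323-3p, miR-673-5p and miR-1197-3p under both, and miR-10a-3p and miR-335-3p under DESeq2 size factors. Names that came to be at least 2-fold higher included let-7a-5p and miR-140-3p under both scalings, and miR-451a under DESeq2 size factors. The 6 hairpins became 13 by difference alone, 59 by a log2 odds difference of at least 1, and 5 without hairpins that share 18 bases. With 1 library per stage, the spread between embryos is unknown.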

Other observations

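Of the 486 names, 324 were in a list, 40 of them higher and 84 lower at 15 days. Outside the lists, 7 names were higher and 26 lower, both smaller shares than the 9.67% and 22.6% of all names. miR-21a-5p, linked to growth and found in most tissues, went from 20286 to 8399 CPM, 2.42-fold lower, and had 8556 CPM in the 17-day library. miR-181b-5p had 11131 and 5308 CPM, short of 2-fold with TMM and DESeq2 size factors, and miR-181a-2-3p had 274.4 and 84.8 CPM. miR-342-3p and miR-342-5p, from an intron of Evl, were 2.78-fold and 6.31-fold lower, and the former had 1341 CPM in the 17-day library against 726.3 at 15 days. miR-335-3p, from an intron of the imprinted gene Mest, had 2171 and 950.6 CPM, just short of 2-fold with DESeq2 size factors. Among the higher names were miR-148a-3p (3540 and 7390 CPM), miR-378a-3p (1517 and 3119 CPM), and miR-33-5p, from an intron of Srebf2, with 358.8 and 879.4 CPM. These names were chosen after their values were seen.

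Of the 1232 names with a read in either library, 169 were listed only at 11 days and 124 only at 15 days. The largest counts among them were 23 and 11 reads. The 2 names with at least 20 reads in one library and none in the other were miR-470-5p, with 23 reads at 11 days, and miR-880-3p, with 21. Against a floor of 3 reads in the 15-day library these were at least 10.9-fold and 9.93-fold higher at 11 days. In adult testis they stood at 5066 and 5376 CPM.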
